A study of Homo sapiens with 5 samples.

Results

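The genes described here encode heat shock proteins and the chaperones that work with them. They were chosen by symbol alone: the HSPA, HSPB, HSP90, HSPH1, HSPD1 and HSPE1 genes, the DNAJA, DNAJB and DNAJC genes, the BAG genes, the CCT and TCP1 subunits of the cytosolic chaperonin, and the prefoldin (PFDN) subunits. Of 8127 genes with a named probe on the arrays, 66 fell in this family, and they were read by 90 probes. The probe with the highest mean over all arrays stood for each gene. A further 23 protein-coding genes of the RefSeq table match the same symbols and are not analysed here.

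The study used HEK293T, a line from human embryonic kidney with the large T antigen, and measured RNA on 5 Illumina expression BeadArrays. In the miR-182 pull-down group (2 arrays) the cells received 200 pmol of a biotin-tagged duplex of the microRNA miR-182-5p, and 24 h later the microRNA and the transcripts held by it were recovered on streptavidin beads before RNA extraction. In the mock group (3 arrays) the cells received a mock transfection, labelled as having no pull-down, although the labels repeat the bead protocol for every array. The bead isolation and the microRNA cannot be told apart in this comparison, and no label says that replicate arrays were separate cultures, so p-values reflect the spread among these arrays alone. All values are deposited log2 signals, which run from a lower limit near 8, where differences are compressed, to about 15.

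Chaperones bind unfolded protein. HSP70 proteins hold short exposed stretches in cycles of ATP hydrolysis, and J-domain proteins (DNAJ) deliver clients and start that hydrolysis. Several BAG proteins and the HSP110 protein HSPH1 release the nucleotide so that the cycle can begin again. HSP90 acts later, on kinases and receptors close to their native state, while prefoldin hands actin and tubulin to the ring-shaped CCT chaperonin. After heat and other protein damage, heat shock factor binds inverted repeats of the letters GAA upstream of many of these genes and raises their transcription. A microRNA finds its transcripts mainly through its seed, so the mature miR-182-5p is printed first, read from RefSeq (GRCh38.p14, chr7:129770447-129770470, minus strand). It runs 5′ to 3′, and the capitals mark the seed, bases 2 to 8. A transcript that pairs with the whole seed holds the letters UUGCCAA.
hsa-miR-182-5p: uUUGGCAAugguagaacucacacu

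In the pull-down, 6 of the 66 chaperone genes rose and 11 fell, and 49 did not pass the test (limma, Benjamini-Hochberg adjusted p under 0.05 over all 8127 genes). The 6 that rose were BAG5, DNAJC9, CCT4, HSPA12A, DNAJC21 and DNAJC13. The 11 that fell were HSPA8, HSPA1B, HSPA9, BAG3, TCP1, HSPA4, CCT5, DNAJB11, DNAJC8, CCT8 and DNAJC12. Over all genes 20.2% were called higher and 15.0% lower, against 9.09% and 16.7% of the family. The share of lower calls was thus close to that of all genes, and the share of higher calls was below it. The median log2 difference, pull-down minus mock, was -0.04 for the family and 0.02 for all genes. The members ranged from -1.84 for HSPA8 to 1.19 for BAG5. Leaving out pull-down array 1 turned the family median to 0.03. The pull-down arrays read RNA recovered on beads, so a rise or fall describes recovered signal against the mock. It does not show a change of expression within the cells. In such bulk samples, fewer cells holding a transcript and less of it per cell cannot be told apart either.

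Calls were spread unevenly over signal levels. The mean over the 5 arrays was at least 9 for 39 members, of which 3 were called higher and 10 lower, or 7.69% and 25.6%, against 21.5% and 24.9% of the 3831 genes at that level. Among the 27 dimmer members 3 were higher and 1 lower, or 11.1% and 3.70%, against 19.0% and 6.10% of the 4296 genes with a mean under 9. The brightest 21 members, with a mean of at least 11, had a median difference of -0.28, and the 889 genes at that level one of -0.05. That family median described neither array: against the mock mean it was -0.52 in pull-down array 1 and 0.10 in pull-down array 2. For the 889 genes these medians were -0.05 and -0.07.

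**Figure D1:**
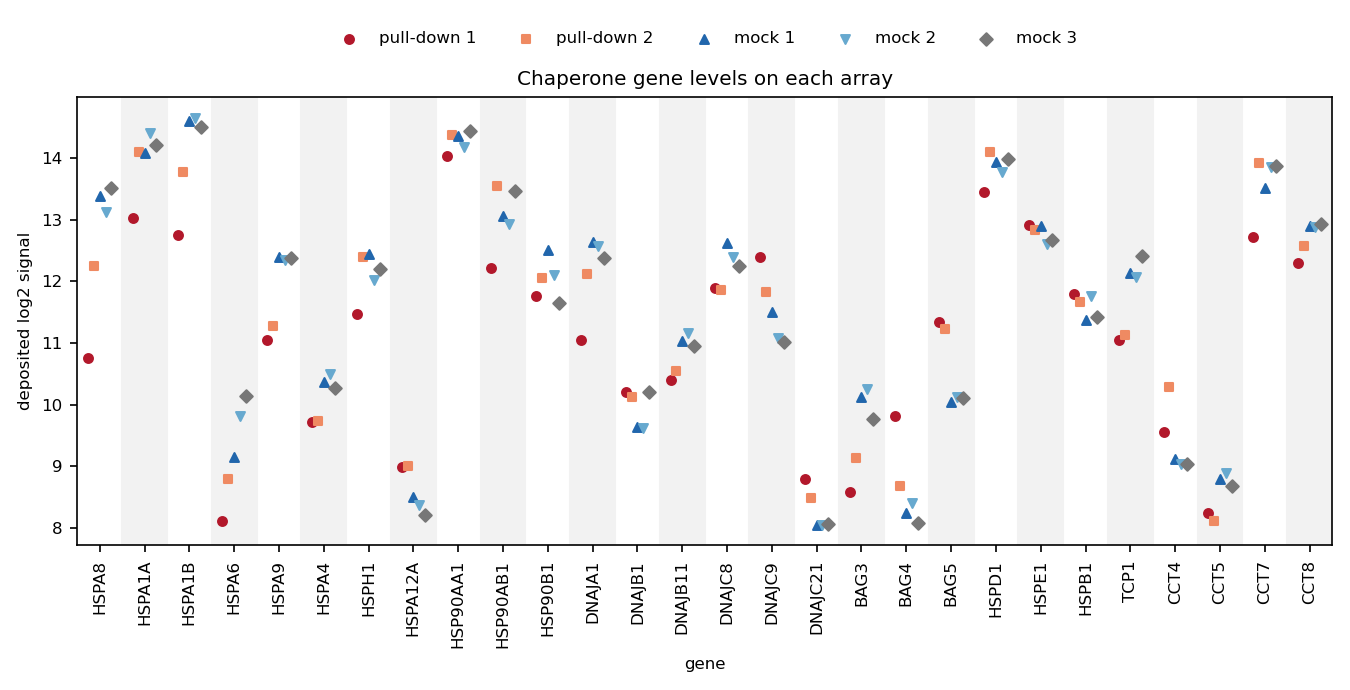
Deposited log2 signal (vertical axis) of selected chaperone genes (horizontal axis) on each of the 5 arrays, with 1 symbol per array and no averaging. BAG5 sits at 11.35 and 11.22 in the pull-down and between 10.05 and 10.13 in the mock, while for HSPA8, HSP90AB1, CCT7 and DNAJA1 pull-down array 1 lies well below pull-down array 2.

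The HSP70 group, with HSP110, had 14 members, of which 4 fell (28.6%), 1 rose (7.14%) and 9 did not pass the test. Over all genes 15.0% were lower and 20.2% higher. With a mean of at least 9, as for 8 of these members, 24.9% of all genes were lower and 21.5% higher. HSPA8 encodes HSC70, the constitutive HSP70 of the cytosol, which also uncoats clathrin vesicles. Its signal was 10.75 in pull-down array 1 and 12.25 in pull-down array 2, against 13.38, 13.13 and 13.52 in the mock. Both pull-down values lay below every mock value, but they differed from each other by 1.49. HSPA8 therefore fell by 2.59 in pull-down array 1 and by 1.10 in pull-down array 2 against the mock mean. The difference over both arrays was -1.84 (SE 0.47, limma, Benjamini-Hochberg adjusted p = 0.0400). Without mock array 1, 2 or 3 the difference was -1.82, -1.95 and -1.76, with adjusted p of 0.111, 0.0944 and 0.0910 (limma, Benjamini-Hochberg). The call was also lost when the probes of a gene were averaged (adjusted p = 0.0540) and with a replicate block (0.0898).

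HSPA1A and HSPA1B are neighbouring heat-inducible genes that encode the same HSP70 protein, and their transcripts are so alike that their probes may share signal; each value is uncertain for that reason. HSPA1B was at 12.75 and 13.77 in the pull-down and at 14.61, 14.66 and 14.51 in the mock. It fell by 1.33 (SE 0.31, limma, Benjamini-Hochberg adjusted p = 0.0329), and the call was lost without mock array 1 (adjusted p = 0.0954), 2 (0.0991) or 3 (0.0678). HSPA1A was at 13.03 and 14.10 against 14.09, 14.41 and 14.22. Pull-down array 2 reached the lowest mock value, the groups overlapped, and its mean difference of -0.68 (SE 0.34) did not pass (limma, Benjamini-Hochberg adjusted p = 0.193). Without pull-down array 2 the difference was -1.21, but the 1 pull-down array left then gives no spread of its own. HSPA6, a strictly heat-inducible HSP70 found in human but not in mouse, was at 8.11 and 8.79 in the pull-down and 9.15, 9.82 and 10.13 in the mock. Its groups did not overlap, yet the difference of -1.25 (SE 0.37) missed the threshold (limma, Benjamini-Hochberg adjusted p = 0.0585), and pull-down array 1 was at the lower limit. Without mock array 1 it passed, at -1.53 (limma, Benjamini-Hochberg adjusted p = 0.0439).

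The pull-down arrays lay close together for the other HSP70 members that fell. HSPA9 encodes mortalin, the HSP70 of the mitochondrial matrix, which pulls precursor proteins through the inner membrane. Its signal was 11.05 and 11.27 in the pull-down against 12.40, 12.35 and 12.38 in the mock, a fall of 1.21 (SE 0.09, limma, Benjamini-Hochberg adjusted p = 0.00313). HSPA4, an HSP110-type exchange factor, was at 9.72 and 9.74 against 10.36, 10.49 and 10.27 and fell by 0.64 (SE 0.09, adjusted p = 0.00851 by limma, Benjamini-Hochberg). Both kept their calls in every alternative that tested them, although a dimmer HSPA4 probe gave -0.19. HSPH1, the main HSP110 protein, was at 11.47 and 12.39 against 12.45, 12.02 and 12.20, and only pull-down array 1 lay below the mock. Its difference was -0.29 (SE 0.31, limma, Benjamini-Hochberg adjusted p = 0.523). HSPA14, a ribosome-associated HSP70 relative, had 9.99 and 9.75 against 10.53, 10.46 and 10.17, and its difference of -0.52 just missed the threshold (limma, Benjamini-Hochberg adjusted p = 0.0516). It passed without mock array 3 (adjusted p = 0.0286).

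The member of this group that rose was HSPA12A, a distant HSP70 relative. It was at 8.98 and 9.01 in the pull-down and 8.51, 8.37 and 8.21 in the mock, higher by 0.63 (SE 0.10, limma, Benjamini-Hochberg adjusted p = 0.0132). Without pull-down array 1 or 2 the call was lost, at 0.65 and 0.62. HSPA5 encodes BiP, the HSP70 of the endoplasmic reticulum, but this probe read it near the lower limit. It was at 8.24 and 8.20 against 8.61, 8.32 and 8.23, a difference of -0.17 (limma, Benjamini-Hochberg adjusted p = 0.382). HSPA2, HSPA4L, HSPA13 and HSPA1L were also dim, with differences from -0.09 to 0.07 and no call.

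None of the 3 HSP90 genes passed the test with its brightest probe. HSP90AA1, the inducible cytosolic HSP90, was at 14.04 and 14.37 in the pull-down and 14.36, 14.18 and 14.45 in the mock (difference -0.12, SE 0.14). HSP90AB1, the constitutive cytosolic form, was at 12.21 and 13.54 against 13.07, 12.93 and 13.47. Pull-down array 1 was below every mock array and pull-down array 2 above every one, so that the mean difference of -0.28 (SE 0.44) described neither array. HSP90B1, the HSP90 of the endoplasmic reticulum, was at 11.76 and 12.06 against 12.51, 12.11 and 11.65 (difference -0.18, SE 0.28). Adjusted p-values of the 3 genes lay between 0.552 and 0.671 (limma, Benjamini-Hochberg).

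Of the 8 subunits of the CCT ring, 3 fell (37.5%), 1 rose (12.5%) and 4 did not pass the test. Over all genes 15.0% were lower and 20.2% higher. With a mean of at least 9, as for 7 of these subunits, 24.9% of all genes were lower and 21.5% higher. The ring holds the subunits in equal numbers. TCP1, the alpha subunit, was at 11.04 and 11.13 in the pull-down and 12.14, 12.07 and 12.40 in the mock. It fell by 1.12 (SE 0.12, limma, Benjamini-Hochberg adjusted p = 0.00563). CCT5 was at 8.23 and 8.11 against 8.79, 8.89 and 8.68 and fell by 0.62 (SE 0.09, adjusted p = 0.0100 by limma, Benjamini-Hochberg), with the pull-down near the lower limit. CCT8 was at 12.29 and 12.58 against 12.89, 12.88 and 12.93, a fall of 0.46 (SE 0.10, limma, Benjamini-Hochberg adjusted p = 0.0283). TCP1 and CCT5 kept their calls throughout, whereas CCT8 lost its call without pull-down array 1, at -0.32. It was also lost without mock array 1 (limma, Benjamini-Hochberg adjusted p = 0.0817), 2 (0.0819) or 3 (0.0682). A trended robust prior (0.0568) and the filters at a mean of 9 (0.0520) and 11 (0.0533) ended the CCT8 call as well.

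CCT4 went the other way, with 9.56 and 10.28 in the pull-down and 9.11, 9.03 and 9.03 in the mock. It rose by 0.86 (SE 0.23, limma, Benjamini-Hochberg adjusted p = 0.0437) and stood above every mock array in both pull-down arrays. That call was lost without mock array 1 (adjusted p = 0.108), 2 (0.121) or 3 (0.0946), and after quantile normalization (0.0525). CCT7 was at 12.71 and 13.92 against 13.52, 13.86 and 13.88, again with pull-down array 1 below and pull-down array 2 above all mock values (difference -0.44, SE 0.38). Its difference was -1.04 without pull-down array 2. CCT2, CCT3 and CCT6A had differences of 0.03, 0.08 and -0.19 and overlapping groups.

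The mitochondrial chaperonin and prefoldin gave no call. HSPD1, the HSP60 ring of the matrix, was at 13.46 and 14.10 against 13.94, 13.77 and 13.99 (difference -0.13, SE 0.21). HSPE1, its HSP10 lid, was at 12.91 and 12.83 against 12.90, 12.61 and 12.67 (difference 0.14, SE 0.11). Both are made from a shared bidirectional promoter, and here the gap between pull-down arrays was 0.64 for HSPD1 and -0.08 for HSPE1. Among prefoldin subunits, PFDN5 was at 12.61 and 12.42 against 12.00, 12.00 and 12.33, and its difference of 0.41 (SE 0.14) did not pass (limma, Benjamini-Hochberg adjusted p = 0.0839). It passed without mock array 3, at 0.52 (limma, Benjamini-Hochberg adjusted p = 0.0308). PFDN1, PFDN2 and PFDN6 had differences of 0.35, -0.11 and -0.27.

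Among the J-domain genes, 3 of 29 rose and 3 fell, and 5 of these calls were in the DNAJC class, whose members share little beyond the J domain. In that class 16.7% were higher and 11.1% lower, both below the 20.2% and 15.0% over all genes. The classes had 3 DNAJA, 8 DNAJB and 18 DNAJC members. DNAJA1, a major partner of HSC70 in the cytosol, was at 11.05 and 12.12 in the pull-down and 12.64, 12.58 and 12.38 in the mock. Both arrays lay below the mock, by 1.48 and 0.41, and the difference of -0.95 (SE 0.33) did not pass (limma, Benjamini-Hochberg adjusted p = 0.0919). Without pull-down array 2 the difference was -1.48. DNAJA2 and the mitochondrial DNAJA3 differed by -0.15 and 0.03.

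DNAJB1, the heat-inducible HSP40 that works with HSPA1A, gave no call on all 5 arrays. It was at 10.21 and 10.12 in the pull-down and 9.63, 9.62 and 10.20 in the mock, which gave 0.35 (SE 0.21, adjusted p = 0.264 by limma, Benjamini-Hochberg), and the groups overlapped. Without mock array 3 it was called higher, at 0.54 (limma, Benjamini-Hochberg adjusted p = 0.0182). DNAJB11, a partner of BiP in the endoplasmic reticulum, was at 10.40 and 10.55 against 11.03, 11.16 and 10.95. It fell by 0.57 (SE 0.09, limma, Benjamini-Hochberg adjusted p = 0.0125), and lost the call without pull-down array 1, at -0.50. The other DNAJB genes, DNAJB2, DNAJB4, DNAJB6, DNAJB9, DNAJB12 and DNAJB14, lay between -0.37 and 0.18 without a call. DNAJB12 was called lower without mock array 3 (adjusted p = 0.0210) and DNAJB2 without mock array 1 (0.0360).

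In the DNAJC class, DNAJC9, a histone chaperone that recruits HSP70 to histones H3 and H4, had the largest rise. It was at 12.40 and 11.82 in the pull-down and 11.50, 11.09 and 11.02 in the mock, higher by 0.91 (SE 0.24, limma, Benjamini-Hochberg adjusted p = 0.0451). The call was lost without pull-down array 1, at 0.62. It was also lost without mock array 1 (limma, Benjamini-Hochberg adjusted p = 0.0549), 2 (0.128) or 3 (0.0992), and after quantile normalization (0.0519). DNAJC21, a factor of ribosome assembly, was at 8.80 and 8.49 against 8.04, 8.05 and 8.06. With all mock arrays at the lower limit its rise of 0.59 (SE 0.11, limma, Benjamini-Hochberg adjusted p = 0.0171) is compressed, and it was lost without mock array 1 (adjusted p = 0.0593) or 2 (0.0594). DNAJC13, an endosomal protein, rose by 0.26 (SE 0.07, limma, Benjamini-Hochberg adjusted p = 0.0416) from 8.31, 8.29 and 8.19 in the mock to 8.50 and 8.54. These values lay near the lower limit. The DNAJC13 call was lost with quantile normalization (0.15, limma, Benjamini-Hochberg adjusted p = 0.172) and with median centring (0.22, adjusted p = 0.0888).

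DNAJC8, a protein of the spliceosome, was at 11.90 and 11.85 in the pull-down and 12.62, 12.39 and 12.25 in the mock and fell by 0.54 (SE 0.13, limma, Benjamini-Hochberg adjusted p = 0.0311). Its call ended when either pull-down array was left out (-0.56 without array 1 and -0.52 without array 2). The call also ended without mock array 2 (limma, Benjamini-Hochberg adjusted p = 0.0868). DNAJC12, which assists aromatic amino acid hydroxylases, fell by 0.35 (SE 0.09, limma, Benjamini-Hochberg adjusted p = 0.0401), from 9.35, 9.17 and 9.30 to 8.998 and 8.845. DNAJC12 and DNAJC13 had the least stable calls: leaving out any 1 of the 5 arrays ended them. With a mock array left out, adjusted p ran from 0.0553 to 0.106 and from 0.0771 to 0.0949 (limma, Benjamini-Hochberg). The 13 members of the class without a call, DNAJC1, DNAJC2, DNAJC3, DNAJC5, DNAJC7, DNAJC10, DNAJC11, DNAJC14, DNAJC17, DNAJC18, DNAJC19, DNAJC24 and DNAJC25, lay between -0.22 and 0.31. DNAJC5 differed by 0.40 without pull-down array 1 and DNAJC10 by 0.45 without pull-down array 2.

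The 4 BAG genes included a fall and the largest rise of the family. BAG5 was at 11.35 and 11.22 in the pull-down and 10.05, 10.13 and 10.11 in the mock. It rose by 1.19 (SE 0.07, limma, Benjamini-Hochberg adjusted p = 0.00281), a 2.28-fold higher signal, and kept its call in every alternative that tested it. BAG3, a heat-inducible co-chaperone of selective autophagy, was at 8.57 and 9.13 against 10.13, 10.26 and 9.76 and fell by 1.20 (SE 0.23, adjusted p = 0.0207 by limma, Benjamini-Hochberg). Its call was lost without pull-down array 1, at -0.92, and without mock array 1 (limma, Benjamini-Hochberg adjusted p = 0.0700) or 2 (0.0652).

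BAG4, which silences death receptor signalling, was at 9.81 and 8.68 in the pull-down against 8.23, 8.40 and 8.08. Both arrays were above the mock, but by 1.57 and 0.45, and the difference of 1.01 (SE 0.36) did not pass (limma, Benjamini-Hochberg adjusted p = 0.0915). Its difference was 1.57 without pull-down array 2. BAG6, which guards membrane proteins on their way to the endoplasmic reticulum, differed by 0.17. The small heat shock proteins HSPB1 and HSPB8, which hold unfolded proteins without ATP, gave no call: HSPB1 was at 11.80 and 11.66 against 11.37, 11.76 and 11.42 (difference 0.21, SE 0.14), and HSPB8 lay at the lower limit (0.02).

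The pull-down arrays differed from each other for several bright chaperone genes. Over all genes they correlated with r = 0.977, and the mock arrays with r = 0.977 to 0.986, against 0.873 to 0.895 between groups (across genes, which are not independent replicates). Pull-down array 2 exceeded pull-down array 1 by at least 1 in log2 for 28 of the 8127 genes (0.345%), and 6 of these were chaperone genes. They were HSPA8 (1.49), HSP90AB1 (1.33), CCT7 (1.20), HSPA1A (1.07), DNAJA1 (1.06) and HSPA1B (1.02). Ranked by this gap among all genes they stood at places 2, 7, 11, 20, 21 and 25. Since the probes of HSPA1A and HSPA1B may share signal, these genes may not be separate cases. In the opposite direction 16 genes (0.197%) passed the same bound, with BAG4 (-1.12) as the member among them. The family contains 21 of the 889 genes with a mean of at least 11, and 14 of those 889 (1.57%) had such a gap, all 6 chaperone genes included.

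The gap differed with signal level among the members. The median gap was 0.01 for the 66 members and -0.01 for all genes, and pull-down array 2 was the higher for 35 members. Among the 21 bright members the median gap was 0.34, with pull-down array 2 higher in 16, while the 889 genes at that level had a median of -0.04. The sources used here do not describe the authors' normalization, so these medians do not show whether a whole array was shifted. The count of 6 was the same with quantile normalization and with either centring. No test was run on this gap, because each side is 1 array.

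Because of the gap, the arrays gave different counts of low members. In pull-down array 1, 9 of the 66 members lay at least 1 below the mock mean, where 449 of the 8127 genes (5.52%) did. In pull-down array 2 there were 3, where 446 genes (5.49%) did. All of these members had a mean of at least 9, and 434 and 433 of the 3831 genes at that level passed the bound. With a mean of at least 11, 7 and 3 of 21 members did, and 135 and 146 of 889 genes. HSPA8, HSPA9 and TCP1 were the 3 in both arrays. Those in pull-down array 1 alone were HSPA1A, HSPA1B, HSPA6, CCT7, DNAJA1 and BAG3.

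**Figure D2:**
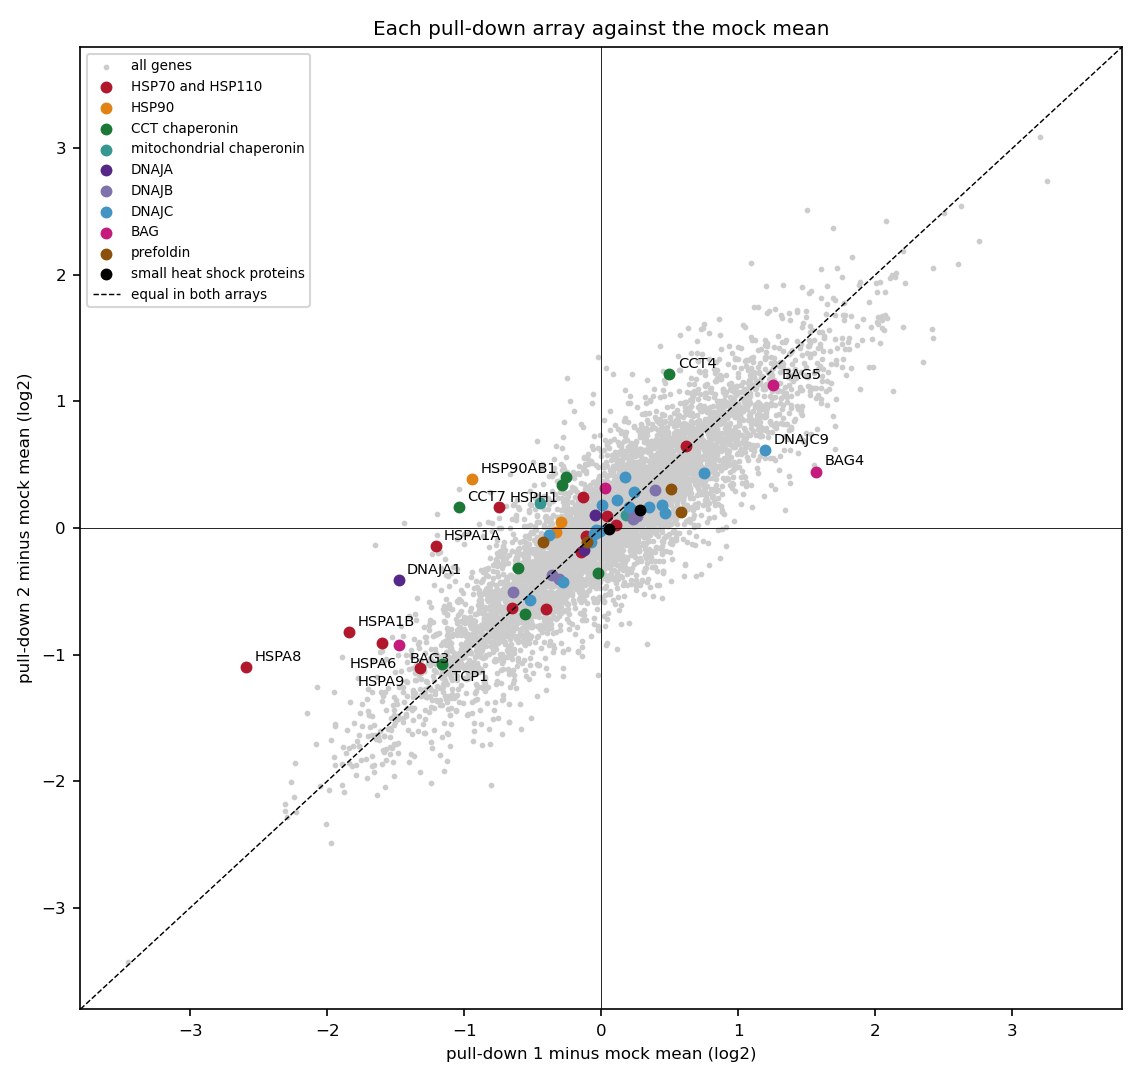
Difference from the mock mean (log2) in pull-down array 1 (horizontal axis) and pull-down array 2 (vertical axis) for all 8127 genes in grey and the 66 chaperone genes in colour by class; points on the dashed line are equal in both arrays. HSPA8, HSP90AB1, CCT7, HSPA1A, HSPA1B and DNAJA1 lie above the line, since pull-down array 2 exceeded pull-down array 1 by 1.02 to 1.49, and BAG4 lies below it.

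**Figure D3:**
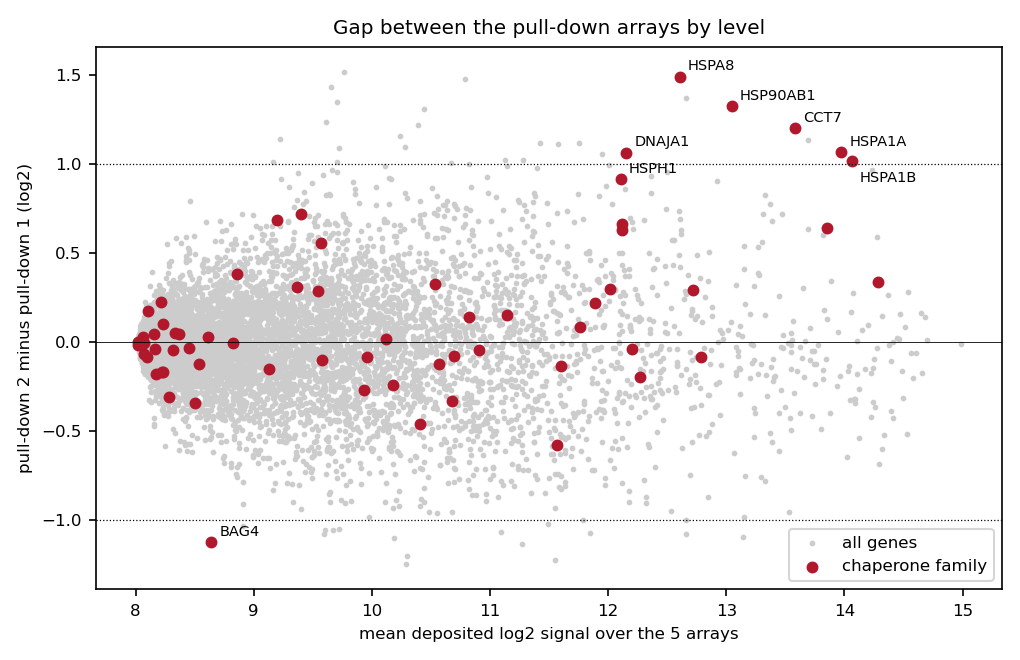
Pull-down array 2 minus pull-down array 1 (log2, vertical axis) against the mean deposited log2 signal of the 5 arrays (horizontal axis), with all genes in grey, the chaperone genes in red and dotted lines at 1 and -1. The 6 members above the upper line all have a mean of at least 11, and BAG4 is below the lower line.

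HSPA8, HSP90AB1, HSPA1A, HSPA1B and DNAJA1 are known targets of heat shock factor, so the 250 bases before each RefSeq transcription start were searched for its letters after the gaps had been seen. The search took a pair of facing units, GAANNTTC or TTCNNGAA, and a run of alternating units, GAANNTTCNNGAA or TTCNNGAANNTTC. These patterns cover both strands and may overlap, and every run of 3 units also holds a pair. A pair was present in 18 of the 60 family genes with a promoter entry, and in 14.0% of 27305 genes. A run was present in 6 of the 60, and in 0.557% of all genes. Those with a run were HSPA8, HSP90AB1, HSP90AA1, HSPD1, HSPA6 and DNAJB6. A match describes the letters and does not show that the site is used.

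Of the 6 members with a gap of at least 1, CCT7 was the one without a pair. The other 5 led to the choice of these letters, so their matches are not independent evidence. Genes outside the family were not split in this way, and a link between letters and gap was not tested. The 18 genes with a pair had a median gap of 0.36 (range -0.14 to 1.49), and 5 of them passed 1. These 5 include HSPA1A and HSPA1B, whose probes may share signal. The 42 genes without a pair had a median gap of -0.002 (range -0.58 to 1.20), and pull-down array 2 was the higher for 21 of them. They include HSPH1 (0.92) and the heat-inducible BAG3 (0.56). HSPE1 (-0.08) is also among them, although it shares its promoter with HSPD1, which carried a run. Letters outside the bases searched were not read, so genes without a pair may still be targets of heat shock factor. The genes with a pair were also the brighter ones, with a median level of 11.68 against 9.47, and the part of level in this difference was not tested. HSP90AA1, HSPD1 and HSPA6 carried a run and had gaps of 0.34, 0.64 and 0.69, below the bound, and DNAJB6, which also carried a run, had -0.08. DNAJB1 and HSPB1, both heat-inducible and both with a pair, had gaps of -0.09 and -0.14.

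Stretches of 30 bases around 1 run or pair are shown for genes on which this comparison turns, each 5′ to 3′ on the strand of the gene, from RefSeq (GRCh38.p14), with the matched letters in capitals. HSPA8, HSP90AB1 and HSP90AA1 have further matches outside the stretch shown. HSPA8 (chr11:123062346-123062375, minus) and HSP90AB1 (chr6:44247769-44247798, plus) carry a run and had the largest gaps. HSPA1B (chr6:31827622-31827651, plus) and DNAJA1 (chr9:33025064-33025093, plus) carry a pair and had gaps just over 1. HSPD1 (chr2:197500061-197500090, minus) and HSP90AA1 (chr14:102087112-102087141, minus) carry a run and had smaller gaps.
HSPA8: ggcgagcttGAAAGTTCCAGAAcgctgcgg
HSP90AB1: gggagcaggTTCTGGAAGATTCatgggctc
HSPA1B: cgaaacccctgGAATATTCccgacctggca
DNAJA1: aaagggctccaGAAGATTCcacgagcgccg
HSPD1: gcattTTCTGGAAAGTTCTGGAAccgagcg
HSP90AA1: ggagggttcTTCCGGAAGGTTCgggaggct

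Whole windows of 250 bases are given for HSPA1A (chr6:31815293-31815542, plus), whose arrays overlapped, for HSPA6 (chr1:161524290-161524539, plus), the strictly inducible gene, and for BAG5 (chr14:103562658-103562907, minus), the stable rise, in which neither pattern occurs. Capitals again mark matches of either pattern.
HSPA1A: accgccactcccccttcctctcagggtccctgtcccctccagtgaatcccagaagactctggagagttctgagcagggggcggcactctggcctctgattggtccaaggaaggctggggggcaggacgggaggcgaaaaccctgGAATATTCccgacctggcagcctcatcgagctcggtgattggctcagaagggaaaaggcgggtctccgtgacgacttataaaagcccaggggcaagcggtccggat
HSPA6: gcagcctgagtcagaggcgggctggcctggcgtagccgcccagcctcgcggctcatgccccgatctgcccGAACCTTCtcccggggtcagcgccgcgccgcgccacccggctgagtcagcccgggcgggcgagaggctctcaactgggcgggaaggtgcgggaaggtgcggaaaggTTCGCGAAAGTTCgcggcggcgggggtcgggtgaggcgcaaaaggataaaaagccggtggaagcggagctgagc
BAG5: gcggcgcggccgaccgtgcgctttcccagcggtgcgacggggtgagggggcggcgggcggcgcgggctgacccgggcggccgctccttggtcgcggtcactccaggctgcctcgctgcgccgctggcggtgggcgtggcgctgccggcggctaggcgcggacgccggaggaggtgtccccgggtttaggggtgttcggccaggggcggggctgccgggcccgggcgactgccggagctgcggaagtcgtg

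For 19 members there were 2 or 3 probes, and several calls depended on which one was read. When every probe with 1 gene symbol was fitted on its own, 9 of the 90 family probes were higher and 16 lower in limma with the same adjustment and threshold, against 19.4% and 14.3% of all 10040 such probes. No gene had probes called in both directions, and 8 had called and uncalled probes together. Of the 24 probes other than the brightest, 17 had its sign.

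HSP90AA1 differed between probes annotated to different transcripts. Probe positions were not examined, so whether these probes tell the transcripts apart is not known. The brightest probe, annotated to the shorter transcript, gave -0.12. The probe annotated to the longer one read 11.99 and 12.60 in the pull-down against 14.04, 13.51 and 14.07. That second probe fell by 1.58 (SE 0.27, limma, Benjamini-Hochberg adjusted p = 0.0162). CCT3 and CCT6A each had a brightest probe without a call and another that fell, by 1.51 (adjusted p = 0.0189) and by 1.24 (adjusted p = 0.0244). All 3 TCP1 probes fell, with differences of -1.12, -1.97 and -0.44.

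Other genes had probes with closer values. Both BAG5 probes rose, by 1.19 and 0.97. HSPA8 had -1.84 and -1.59. Its second probe, at 10.60 and 12.32 against 13.01, 12.96 and 13.17, was not called (limma, Benjamini-Hochberg adjusted p = 0.0818) and had a gap of 1.71 between the pull-down arrays. The 3 CCT7 probes had gaps of 1.20, 1.05 and 2.39, and the HSPD1 probes 0.64, 1.14 and 0.50. The gap of BAG4 was not repeated, since its other probe, at 8.48 and 8.56 against 8.03, 8.05 and 8.03, had 0.08 and rose by 0.48 (limma, Benjamini-Hochberg adjusted p = 0.00644). A second PFDN5 probe rose by 1.00 (adjusted p = 0.0276), beside 0.41 without a call at the first. HSPA8, HSPD1, HSP90AA1 and the CCT genes have processed pseudogenes, with which their probes may share signal.

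**Figure D4:**
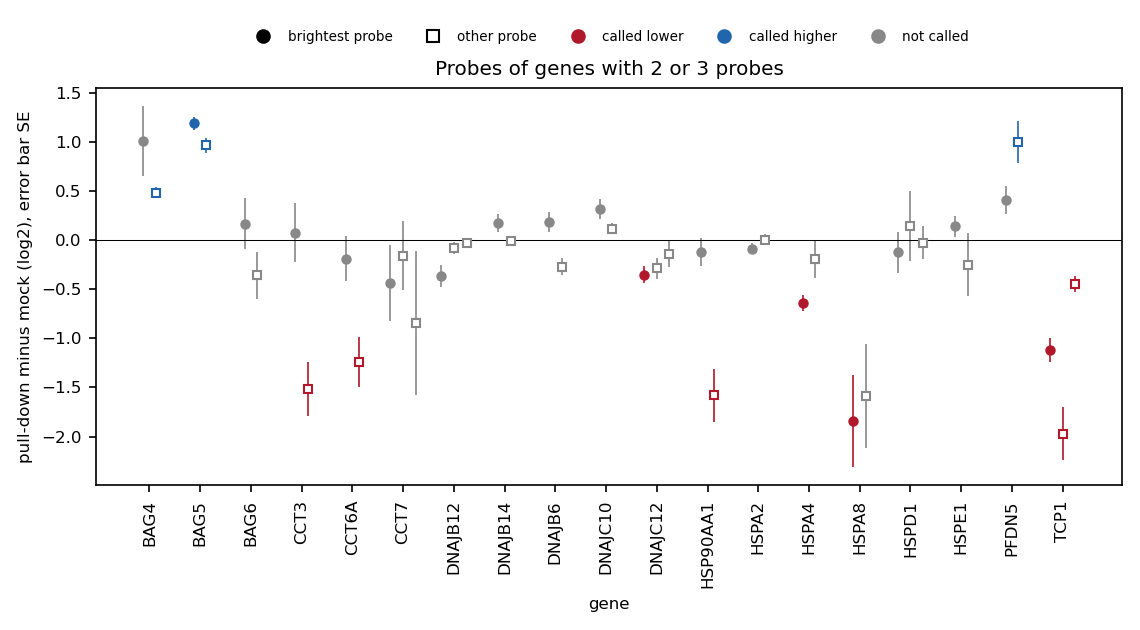
Difference between pull-down and mock (log2, vertical axis, bars show SE) for each probe of the 19 chaperone genes with more than 1 probe (horizontal axis). Filled circles mark the brightest probe, open squares the others, and colour the call, so that HSP90AA1, CCT3 and CCT6A show an uncalled brightest probe near 0 beside a lower one at -1.58, -1.51 and -1.24.

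Genes that act with the family were read from 5 lists, which were also compared with the 20.2% higher and 15.0% lower over all genes. Of 17 measured co-chaperones of HSP70 and HSP90, 2 rose and 4 fell, with a median difference of -0.23. The rises were STIP1, which bridges HSP70 and HSP90 (0.91, SE 0.22), and ST13, which stabilises HSP70 with bound ADP (0.84, SE 0.09). The largest falls were PTGES3, the HSP90 partner p23 (-1.65, SE 0.08), and NUDC (-1.46, SE 0.24). Of 16 folding genes of the endoplasmic reticulum, 3 rose, such as PDIA4 (0.95, SE 0.16) and HYOU1 (0.64, SE 0.15), and 4 fell, led by the lectin chaperone CALR (-1.70, SE 0.21) and the stress-induced factor MANF (-1.22, SE 0.19), with a median of -0.05.

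Of 9 mitochondrial partners GRPEL2, an exchange factor of mortalin, rose (1.10, SE 0.18), the protease LONP1 fell (-0.63, SE 0.14), and the median was -0.03. Among 16 genes of tubulin and actin folding, 3 rose, including TUBA1C (1.19, SE 0.15) and the tubulin cofactor TBCB (1.14, SE 0.21), and 2 fell, TXNDC9 (-0.70, SE 0.14) and TBCD (-0.55, SE 0.15), with a median of 0.07. The list of heat shock factors and regulators had 5 genes measured, none of them a heat shock factor. HSBP1, which binds the trimer of heat shock factor 1, rose (0.64, SE 0.16) and the autophagy receptor SQSTM1, a partner of BAG3, fell (-1.63, SE 0.13), with a median of -0.12. Adjusted p-values of these 16 named genes lay between 0.00276 and 0.0486 (limma, Benjamini-Hochberg).

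These list counts moved when 1 array was left out. Where a pull-down array was dropped, the 1 left was assumed to vary like the mock. Co-chaperones had 1 higher call when mock array 1, mock array 2 or pull-down array 1 was dropped, and 2 lower calls when pull-down array 2 was. Dropping pull-down array 1 left 1 lower co-chaperone and 0 higher mitochondrial partners, with 1 tubulin and actin gene higher. Genes of the endoplasmic reticulum then had 1 higher and 2 lower calls. Without mock array 2 no gene of the endoplasmic reticulum was higher, and without mock array 1 or 2 no tubulin and actin gene was lower. LONP1 was the only lower mitochondrial partner, and the count was 0 once any array other than mock array 1 was left out. The list of heat shock factors and regulators had 0 higher calls in those fits, except for 1 when pull-down array 2 was dropped.

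The label of the cells was set against genes that HEK293T is known to express. VIM read 13.0 to 13.8. UCHL1 was at 9.95 and 10.08 in the pull-down and 12.30, 12.16 and 12.32 in the mock. Its difference of -2.245 (SE 0.08) was called lower (limma, Benjamini-Hochberg adjusted p = 0.00276). ENO2, INA and NEFM lay between 8.41 and 9.22, while GATA3 at 8.04 to 8.10 and NEFL at 8.06 to 8.32 stayed near the lower limit. Of 9 markers of other cell types, COL1A1 was the one measured, at 8.02 to 8.04.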

How the data were processed

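RNA of 2 miR-182 pull-down and 3 mock arrays was read from the log2 values that the authors deposited (11184 probes). Per the submitters' processing notes, lumi 2.2.1 was among the tools, in a role not stated there. How the values were transformed, normalized and filtered is not given in the sources used here, and base 2 was inferred from their range. A table of unnormalized signals was not used, because its 10 value columns match no sample label. The planned test was otherwise kept.

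Of the probes, 10040 had 1 gene symbol in the platform annotation, and 10039 of these matched a current RefSeq record. No symbol of the family needed updating. Each of the 8127 genes was read by its brightest probe and fitted with limma 3.58.1 in R 4.3.3 (lmFit, eBayes, 2-sided, group as the only term, 3 residual and 1.61 prior degrees of freedom). Tests were adjusted by Benjamini-Hochberg over all genes and called under 0.05. An exact permutation test could not fall below p = 0.1. The fit was tested on simulated data. Precision is limited by the number of arrays.

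The members, lists, tests and named genes were chosen with earlier results of these data known. Values per array are given for the principal chaperones, for called members and for those with the largest gap between pull-down arrays. They are also given for HSPA6, HSPA14 and PFDN5, which were uncalled in the main fit and passed in some alternatives. At most 2 genes per direction are named from each list. Alternatives covered scaling, filters, probes, the prior, a replicate block and leaving out each array. The mean filter at 11 and the fit over probes were added after seeing the data. Promoter and microRNA sequences came from RefSeq tables (GRCh38.p14), and 60 of 66 members had a promoter entry.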

Additional observations from a re-analysis of the deposited data

How the results depend on the processing

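Of the 17 called members, 5 kept the call in every alternative that tested them (BAG5, CCT5, HSPA4, HSPA9 and TCP1), and 12 lost it in at least 1, while 17 uncalled members gained one in at least 1. No called difference changed sign. With genes of a mean of at least 9, 954 genes were higher, 3 members were higher and the family median was -0.22. With a mean of at least 11, a bound chosen after seeing the data, 231 genes were higher and 280 lower, 1 member was higher and 7 were lower, and the median was -0.28; fewer genes were tested in both. Quantile normalization left 3 members higher, and a trended robust prior gave 10; the cause was not tested. Leaving out 1 array at a time gave 958 to 1379 higher and 638 to 1205 lower genes, 2 to 6 higher and 5 to 12 lower members, and a median of -0.0627 to 0.0341. The fewest higher members, 2, came without mock array 1 or 2, and the fewest lower, 5, without mock array 2. Where 1 pull-down array remained, it was assumed to vary like the mock. Among member differences, 660 settings kept side and direction, 42 gained a call, 56 lost one and 28 uncalled values moved. Counts by class and list kept within 1.5 times in 303 settings and moved in 106. HSP90AA1 passed when the probes of a gene were averaged (-0.85, limma, Benjamini-Hochberg adjusted p = 0.0336).

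With the replicate number as a block, 5 members were higher and 10 lower, among 1289 higher and 1132 lower genes. The block ended 7 calls, those of HSPA8 (limma, Benjamini-Hochberg adjusted p = 0.0898), HSPA1B (0.0520), CCT4 (0.0909), CCT8 (0.0771), DNAJC12 (0.0672), DNAJC13 (0.146) and DNAJC21 (0.0507). It added 5, those of DNAJB1, DNAJB12, HSPA14, HSPA6 and PFDN5. Arrays that share a number had deviations correlated with r = 0.0361 and 0.115 across genes, and the 2 pairs do not show that the numbers pair the arrays.

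Between 12.2% and 23.7% of genes per array lay within 0.1 of its lowest value, where differences are compressed. The median over all genes moved by under 0.1 with any of the 3 scalings.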
